A study of Rattus norvegicus with 4 samples.

Results

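The integrated stress response was examined through 10 genes in the insulin-secreting rat insulinoma line INS-1 832/3, grown as a standard 2D monolayer or bioprinted as grids in a GelXA LAMININK 411 hydrogel (3D). The genes were Atf4 itself, the related factors Atf3, Atf5, Ddit3 and Nupr1, the feedback genes Trib3 and Ppp1r15a, and the effector genes Asns, Chac1 and Sesn2. They were taken by symbol, all 10 were found among the 23360 gene symbols of the data, and all 10 reached the mean of 1 TPM (a length-corrected share of all transcripts) required for testing. There were 2 cultures per group, called biological replicates in the labels, and all were harvested on day 5 at passage 3. Both groups received the same RPMI-1640 medium with fetal bovine serum, Geneticin, HEPES, sodium pyruvate and 2-mercaptoethanol. The monolayer was neither embedded nor printed, so matrix, printing and light curing cannot be told apart as conditions of the 3D group. The line is a single clonal tumour line that carries a human insulin gene, and no islet tissue or other donor was examined.

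In the integrated stress response, kinases that sense unfolded protein, amino acid shortage, heme shortage or viral RNA phosphorylate the initiation factor eIF2. General translation then slows, while the Atf4 transcript, which holds upstream open reading frames, is translated more. ATF4 protein induces genes of amino acid supply together with Ddit3 (CHOP), Atf3, Trib3 and Chac1, and Ppp1r15a (GADD34) directs a phosphatase that restores eIF2. In beta cells, with their heavy load of proinsulin folding, this response is best known from endoplasmic reticulum stress. Because ATF4 is controlled at translation, the level of its mRNA does not report the level of its protein, and only mRNA was measured here.

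Promoter sequence is shown for the 4 members whose windows held either the element that ATF4 and C/EBP factors bind, named CARE, or the full cyclic AMP response element, named CRE, since the members were chosen as targets of such factors. The sequences are the 250 bases before the transcription start in RefSeq on build GRCr8, on the strand of the gene, and 9 of the 10 members had such a window (Atf3 had none). Capitals mark matches to CARE (TGATGNAA), CRE (TGACGTCA) or the AP-1 element (TGANTCA), on either strand. The AP-1 match of Ppp1r15a crosses its start, so its last base lies beyond the bases shown. The windows are Trib3 at chr3:161275534-161275783 (minus strand), Chac1 at chr3:126795881-126796130 (plus strand), Nupr1 at chr1:190645902-190646151 (minus strand) and Ppp1r15a at chr1:105139597-105139846 (minus strand).
Trib3: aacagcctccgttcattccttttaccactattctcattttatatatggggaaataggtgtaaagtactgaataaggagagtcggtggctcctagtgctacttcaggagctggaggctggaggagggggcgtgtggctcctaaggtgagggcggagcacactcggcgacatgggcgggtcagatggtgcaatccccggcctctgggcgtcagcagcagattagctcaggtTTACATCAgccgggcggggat
Chac1: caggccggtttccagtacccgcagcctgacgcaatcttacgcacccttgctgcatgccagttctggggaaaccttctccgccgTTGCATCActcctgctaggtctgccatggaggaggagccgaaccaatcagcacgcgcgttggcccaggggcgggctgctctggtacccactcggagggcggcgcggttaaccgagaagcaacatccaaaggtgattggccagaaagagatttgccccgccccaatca
Nupr1: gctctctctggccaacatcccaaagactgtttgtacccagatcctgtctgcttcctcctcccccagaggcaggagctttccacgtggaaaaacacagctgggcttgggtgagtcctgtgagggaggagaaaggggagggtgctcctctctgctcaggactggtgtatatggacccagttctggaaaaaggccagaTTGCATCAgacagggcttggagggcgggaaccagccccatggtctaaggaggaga
Ppp1r15a: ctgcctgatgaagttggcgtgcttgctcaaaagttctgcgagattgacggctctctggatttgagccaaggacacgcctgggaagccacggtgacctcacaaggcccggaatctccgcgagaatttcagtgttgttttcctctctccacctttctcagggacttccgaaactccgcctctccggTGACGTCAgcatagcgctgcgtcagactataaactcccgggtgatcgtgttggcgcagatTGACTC

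The CARE match began at position -21 from the start in Trib3, -167 in Chac1 and -55 in Nupr1, each time on the opposite strand. In windows of 300 bases, which add the 50 bases from the start on, CARE matched 3.98% of the 33469 rat promoters and 1.88% of the 9833 promoters of genes tested here. Ppp1r15a held the CRE at -66 and an AP-1 match at -6. CRE letters were found in 1.83% of all promoters and 3.11% of those of tested genes, and AP-1 letters in 7.33% and 4.38%. Ddit3 and Atf5 each held 1 AP-1 match, and the windows of Atf4, Asns and Sesn2 held none of these letters. These are matches of letters in short windows and not measured binding.

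Of the 10 genes, 2 rose in 3D culture (Atf3 and Ppp1r15a), 3 fell (Ddit3, Nupr1 and Atf5) and 5 did not pass the test, with an adjusted p below 0.05 in limma taken as the threshold. Of the 11960 genes in the test, 18.5% rose and 19.5% fell, 38.0% in all, so that 5 of 10 members called stands in a data set where changes were common. An unadjusted limma p below 0.05 was reached by 6057 of the 11960 genes, beside which the unadjusted counts given below stand. The members thus moved in both directions, with a median log2 fold change of -0.13 against -0.003 for all genes tested. Their median absolute log2 fold change was 0.24, and that of all genes tested was 0.22. In scaled TPM the 2 groups did not overlap in 9 of the 10 members, as in 75.5% of all genes tested. In TPM as deposited this held for 8 members, since Atf4 overlapped as well as Chac1. Fold changes were computed on log2(TPM + 1) after scaling between samples, which understates the change of genes at low TPM, while the TPM values below are as deposited. The smallest two-sided p that exact permutation of 4 cultures allows is 0.333, which is why the calls depend on limma's pooling of variance, and the p-values measure only the spread among these cultures. The paper states a read count per sample, but TPM hold no counts of single genes, and counting error was not worked out. In bulk RNA, fewer cells with a transcript and less of it per cell cannot be told apart.

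**Figure D1:**
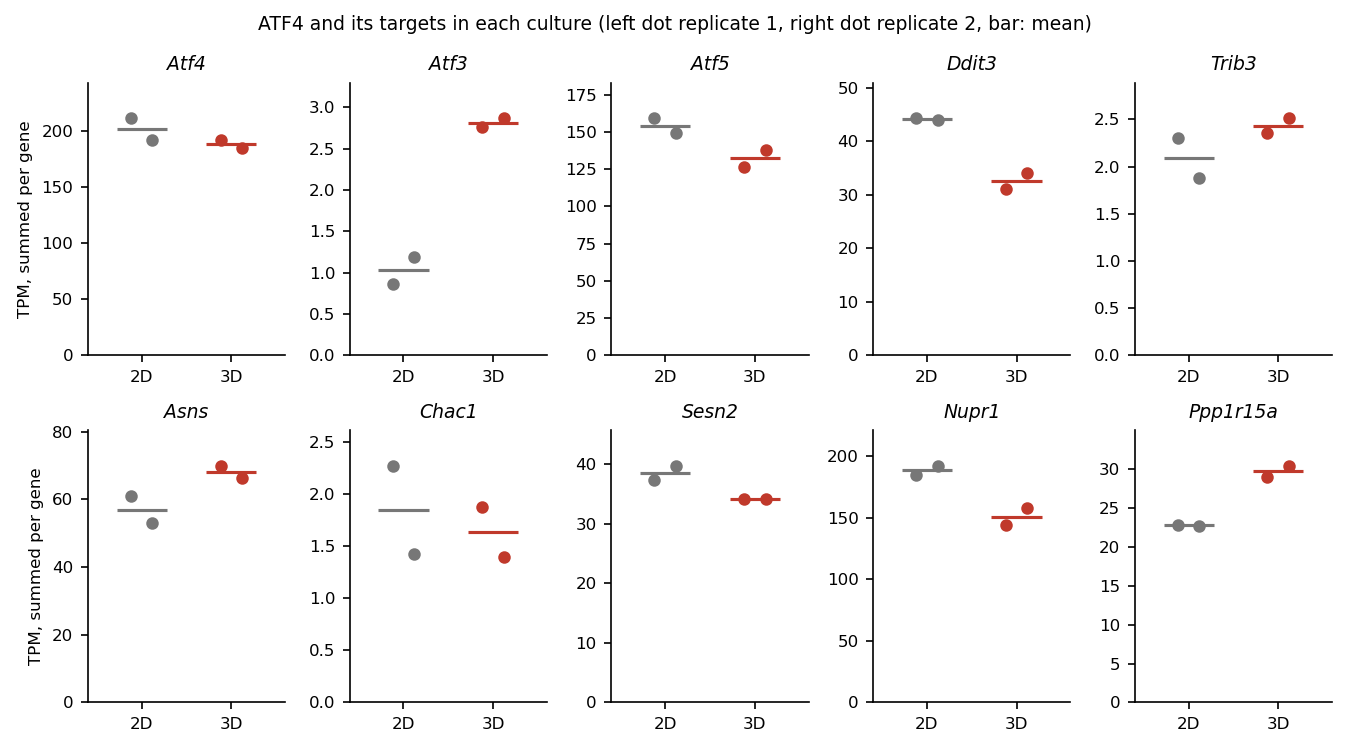
TPM of the 10 genes, summed over transcripts, in the 2 monolayer (2D, grey) and the 2 bioprinted (3D, red) cultures; the left dot is replicate 1, the right dot replicate 2 and the bar the mean, with a vertical axis from 0 for each gene. Atf3 and Ppp1r15a lay higher in both 3D cultures, Ddit3, Nupr1 and Atf5 lay lower in both, and Chac1 and, narrowly, Atf4 overlapped between the groups.

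The 10 genes differed widely in level, with 112 times between the highest and the lowest mean over the 4 cultures. TPM are corrected for transcript length, so levels can be ordered across genes. Atf4 was the highest, with a mean of 195 TPM over the 4 cultures, above 94.9% of the genes tested. Nupr1 followed with 170 TPM and Atf5 with 143 TPM, and the ranges of these neighbours overlapped. Asns (62.5 TPM), Ddit3 (38.3 TPM), Sesn2 (36.3 TPM) and Ppp1r15a (26.2 TPM) formed the middle. Ddit3 and Sesn2 overlapped in range, while Asns and Ppp1r15a were separate from their neighbours. Trib3, Atf3 and Chac1 were at 2.26, 1.92 and 1.74 TPM with overlapping ranges, Trib3 being above 8.56% of the genes tested and Chac1 above 5.23%. The order of these low genes differed between the groups, since Atf3 was the lowest of the 10 in monolayer (mean 1.03 TPM) and lay above Trib3 (2.44 TPM) and Chac1 (1.64 TPM) in 3D culture (mean 2.81 TPM). Atf4, Nupr1 and Atf5 therefore made up most of the summed signal, which was 726 and 697 TPM in 2D, and 634 and 652 TPM in 3D.

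Atf4, the factor that gives the response its name, had 211 and 192 TPM in 2D, and 192 and 185 TPM in 3D. As deposited, the lower monolayer culture and the higher 3D culture were nearly equal. The log2 fold change was -0.14 (SE 0.059, limma adjusted p = 0.115), and its 95% interval ran from -0.28 to 0.01. A transcript change of Atf4 was thus not shown, and the interval holds falls of up to 0.28 on the log2 scale. The gene is listed with 2 transcripts, and ENSRNOT00000065304.4 took 96.8% to 98.1% of its TPM in each culture.

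Ddit3 encodes CHOP, a C/EBP-related factor induced by ATF4 that promotes death of stressed beta cells. It had 44.2 and 44.0 TPM in 2D, and 31.0 and 34.1 TPM in 3D. The monolayer cultures were close together and both lay above both 3D cultures. The fall amounted to a log2 fold change of -0.47 (SE 0.066, limma adjusted p = 0.0072), a level 0.721 times that of the monolayer, and the size of the change exceeded that of 83.2% of the genes tested. Of its 2 transcripts, ENSRNOT00000083472.1 had 26.4 and 15.2 TPM in 2D, and 18.5 and 16.7 TPM in 3D, whereas ENSRNOT00000008941.5 had 17.8 and 28.8 TPM in 2D, and 12.5 and 17.3 TPM in 3D. In monolayer each transcript varied more between replicates than their sum, and the former overlapped between the groups. Taking that transcript instead of the sum gave Ddit3 a log2 fold change of -0.22 and no call (limma adjusted p = 0.456). It was taken as the more abundant by a narrow margin, with a mean of 19.2 against 19.1 TPM over the 4 cultures. The other transcript did not overlap between the groups, and its mean in 3D culture was 0.640 times that in monolayer. The quantification divides reads among transcripts of a gene, and its part in this variation was not tested. In the RefSeq annotation the ends of Ddit3 and Mars1 overlap, and whether strand was used in the quantification is not given in the sources used here.

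Nupr1 encodes a small stress-induced chromatin protein that acts with ATF4 and CHOP. It had 185 and 192 TPM in 2D, and 144 and 158 TPM in 3D. The groups did not overlap. Its log2 fold change was -0.37 (SE 0.072, limma adjusted p = 0.0152), which was the second largest fall among the 10 genes. A CARE match stands before its start, as printed above, and the other members with this match, Trib3 and Chac1, had no call.

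Atf5 encodes a factor close to ATF4 that is likewise controlled through upstream reading frames and favours beta-cell survival. It had 159 and 149 TPM in 2D, and 127 and 138 TPM in 3D. Both 3D cultures lay below both monolayer cultures, and the log2 fold change was -0.26 (SE 0.059, limma adjusted p = 0.0218). On TPM without scaling between samples the log2 fold change was -0.22 and the call was lost (limma adjusted p = 0.0506). Atf5 stood at 0.753 and 0.776 times Atf4 in the monolayer cultures and at 0.659 and 0.745 times in the 3D cultures. In the RefSeq annotation Atf5 overlaps Nup62 and Il4i1, with the same limit as for Ddit3.

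Atf3 encodes a stress-induced factor, often a repressor, that also answers to growth and cytokine signals through AP-1 and CRE elements. It had 0.864 and 1.19 TPM in 2D, and 2.76 and 2.86 TPM in 3D. All values were low, and both 3D cultures lay above both monolayer cultures. With a monolayer mean of 1.03 TPM against the mean of 1 TPM required, a clear fall would have left Atf3 untested. It could thus in effect be called only as higher, which limits the count of 2 members that rose. Without this filter its log2 fold change was 0.87 (limma adjusted p = 0.0216). The mean TPM in 3D culture was 2.74 times that in monolayer, while on the log2(TPM + 1) scale the change was 0.89 (SE 0.14, limma adjusted p = 0.0090). Adding 0.1 rather than 1 before taking logs gave 1.35. Most of the signal came from ENSRNOT00000005085.3, with 0.728 and 1.19 TPM in 2D and 2.41 and 2.63 TPM in 3D, and the other transcript, ENSRNOT00000089841.1, reached at most 0.354 TPM and was listed at 0 in monolayer replicate 2.

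Ppp1r15a encodes GADD34, the inducible subunit that brings protein phosphatase 1 to eIF2 and so ends the translational block. It had 22.9 and 22.7 TPM in 2D, and 29.0 and 30.4 TPM in 3D. The replicates lay close together in both groups, with no overlap. The log2 fold change was 0.33 (SE 0.061, limma adjusted p = 0.0136). Both of its transcripts were higher in 3D culture in each replicate. The major one, ENSRNOT00000044788.4, had 20.5 and 21.1 TPM in 2D, and 25.5 and 27.4 TPM in 3D. Ppp1r15a and Ddit3, targets usually listed together, moved in opposite directions: the ratio of their TPM was 0.517 and 0.516 in the monolayer cultures and 0.934 and 0.893 in the 3D cultures. This ratio is taken within a culture and does not depend on the scaling between samples.

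**Figure D2:**
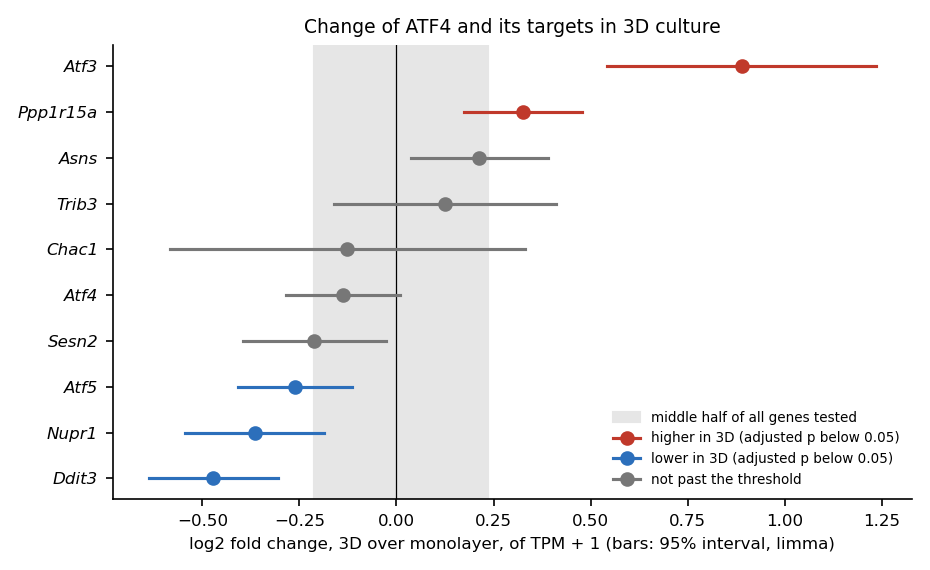
Log2 fold change of the 10 genes, 3D over monolayer, on the log2(TPM + 1) scale, with 95% intervals from limma (red: higher, blue: lower, grey: not past an adjusted p of 0.05); the shaded band runs from the lower to the upper quartile of all genes tested, -0.21 to 0.24. Atf3 lies farthest to the right at 0.89 and Ddit3 farthest to the left at -0.47, and the intervals of Trib3, Chac1 and Atf4 include 0.

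Among the effectors and the remaining feedback gene, none passed the threshold. Asns, the asparagine synthetase gene and a classical ATF4 target of amino acid shortage, had 61.0 and 52.9 TPM in 2D, and 69.9 and 66.3 TPM in 3D. Both 3D cultures lay above both monolayer cultures, but the log2 fold change of 0.21 (standard error 0.071) had an adjusted p of 0.0614 in limma. It passed in 3 other settings, with limma adjusted p values of 0.0391 over genes with a mean of at least 5 TPM, 0.0417 without monolayer replicate 1 and 0.0386 with a replicate block. Its transcript ENSRNOT00000083481.1 had 39.1 and 33.8 TPM in 2D, and 46.0 and 38.9 TPM in 3D, and overlapped between the groups. The other, ENSRNOT00000010079.4, had 21.9 and 19.1 TPM in 2D, and 23.9 and 27.3 TPM in 3D. Relative to Atf4, Asns stood at 0.289 and 0.276 in the monolayer cultures and at 0.363 and 0.358 in the 3D cultures.

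Sesn2 encodes sestrin 2, a leucine sensor that restrains mTORC1. It had 37.3 and 39.7 TPM in 2D, and 34.2 and 34.1 TPM in 3D, so that the groups did not overlap. The log2 fold change was -0.21 (SE 0.073, limma adjusted p = 0.0690). Without monolayer replicate 1, the lower of the monolayer values, the adjusted p was 0.0261.

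Trib3 encodes a pseudokinase that binds ATF4 and dampens it. It had 2.30 and 1.88 TPM in 2D, and 2.36 and 2.51 TPM in 3D, with a log2 fold change of 0.13 and a 95% interval from -0.16 to 0.41 (limma adjusted p = 0.413). Chac1 encodes an enzyme that degrades glutathione. It had 2.28 and 1.42 TPM in 2D, and 1.88 and 1.39 TPM in 3D, overlapping values with a log2 fold change of -0.13 (limma adjusted p = 0.605). The interval of Chac1, from -0.58 to 0.33, was the widest of the 10, so that changes of such sizes were not detectable here. Its sign turned without monolayer replicate 1, to 0.07, and without bioprinted replicate 2, to 0.01.

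**Figure D3:**
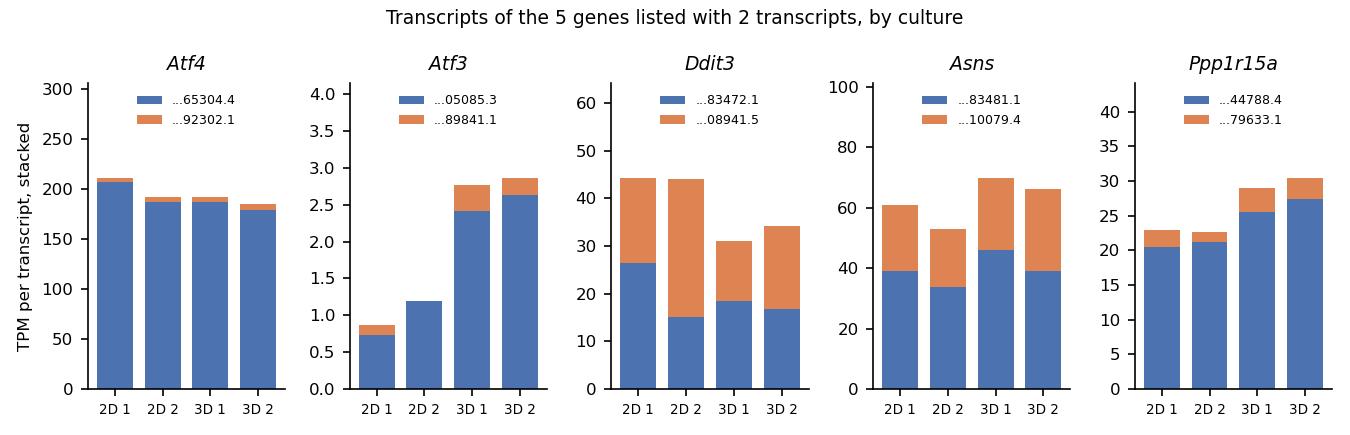
TPM of each transcript, stacked, in the 4 cultures (2D: monolayer, 3D: bioprinted, numbers: replicates) for the 5 genes listed with 2 transcripts, named by the end of their Ensembl identifier. In Ddit3 the division between the transcripts changed from replicate to replicate while the total stayed near 44 TPM in monolayer; in Atf4, Atf3 and Ppp1r15a a single transcript held most of the signal.

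The calls of the 5 members leaned on both 3D cultures. With bioprinted replicate 1 left out no member was called by limma, and far fewer of all genes tested passed than in the full fit. With bioprinted replicate 2 left out Ddit3 alone was called, among 1037 genes in all. In these fits the remaining 3D culture is assumed to vary like the monolayer cultures. The direction of each of the 5 called members was unchanged with any single culture left out, and their log2 fold changes then ran from 0.75 to 1.03 for Atf3, 0.29 to 0.35 for Ppp1r15a, -0.52 to -0.42 for Ddit3, -0.43 to -0.30 for Nupr1 and -0.31 to -0.21 for Atf5.

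The cells had the transcripts of beta cells: all 10 markers found of the 11 sought, among them Ins1, Iapp, Pdx1 and Slc2a2, were above 1 TPM. Of markers of other islet, acinar, ductal, endothelial, fibroblast and white blood cells, only Gcg and Kdr had a mean of at least 1 TPM. Gcg, which encodes glucagon, had 41.9 and 73.8 TPM in 2D, and 124 and 155 TPM in 3D (log2 fold change 1.26, limma adjusted p = 0.0217), while the markers of other islet cells Irx2, Hhex and Ghrl were at 0 in every culture. Summed within each list, markers of acinar and ductal, endothelial, fibroblast and white blood cells reached at most 1.68 TPM in any culture. Amy2a3, Pecam1 and Col1a2 of these lists were not found in the data. Whether the rise of Gcg bears on the members was not tested.

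Upstream of ATF4, the kinases, eIF2, its exchange factor eIF2B and their regulators were measured with 20 genes, all of them tested. There 3 rose and 6 fell, with a median log2 fold change of -0.04. Among all genes tested 18.5% rose and 19.5% fell, and the counts of this and the following lists stand beside these shares. The kinase genes Eif2ak1, Eif2ak2 and Eif2ak3 were not called, while Eif2ak4, which encodes the amino acid sensor GCN2, rose by 0.26 on the log2 scale (limma adjusted p = 0.0485) and its coactivator gene Gcn1 by 0.22 (0.0272). Impact, whose product competes with GCN2 for GCN1, had 30.6 and 28.2 TPM in 2D, and 43.3 and 41.8 TPM in 3D (log2 fold change 0.48, limma adjusted p = 0.0059). Ppp1ca, a catalytic subunit gene of the phosphatase that GADD34 recruits, had 520 and 531 TPM in 2D, and 398 and 415 TPM in 3D. This was a fall of 0.41 on the log2 scale (limma adjusted p = 0.0083). The catalytic subunit genes Ppp1cb and Ppp1cc had log2 fold changes of -0.19 and 0.05 (limma adjusted p = 0.0493 and 0.481), so that Ppp1cc was not called. The eIF2 beta subunit gene Eif2s2 fell by 0.30 on the log2 scale (limma adjusted p = 0.0121). Another eIF2 subunit gene, Eif2s1, had a log2 fold change of -0.23 (limma adjusted p = 0.0373). The eIF2B subunit genes Eif2b4 and Eif2b5 had -0.32 and -0.26 (limma adjusted p = 0.0140 and 0.0238), while Eif2b1, Eif2b2 and Eif2b3 were not called.

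ATF4 acts as a dimer with other leucine zipper factors, and 12 genes of such partners were tested. Of these 4 rose and none fell (5 and 3 at an unadjusted limma p below 0.05), although the median log2 fold change was -0.11. The 4 that rose were of the AP-1 family, which growth and stress signals induce rapidly: Jun, Junb, Fos and Fosl2. Other genes of that family or close to it were not called, with log2 fold changes of 0.30 for Jund, -0.24 for Jdp2 and -0.49 for Batf3 (limma adjusted p = 0.0618, 0.261 and 0.0885). Junb had 15.1 and 16.4 TPM in 2D, and 35.2 and 33.1 TPM in 3D (log2 fold change 1.03, limma adjusted p = 0.0037). Fos was at or below 2.01 TPM in each culture (log2 fold change 0.66, limma adjusted p = 0.0175), and Fosl2 rose by 0.79 on the log2 scale (limma adjusted p = 0.0259). Fos had only 0.841 and 0.688 TPM in 2D, short of the mean of 1 TPM required, and was tested because of its 3D values. It could thus be called only as higher, which limits the count of 4 that rose. The C/EBP members of the list, Cebpa, Cebpb, Cebpd and Cebpg, were not called. Among 10 tested genes of other ATF and CREB factors (Creb5 was below 1 TPM), 3 rose and none fell (3 and 0 at an unadjusted limma p below 0.05), with a median log2 fold change of 0.27. Crem, which yields activators and repressors of cyclic AMP responses, had 46.4 and 41.9 TPM in 2D, and 82.8 and 80.0 TPM in 3D (log2 fold change 0.83, limma adjusted p = 0.0035). Atf7 and Atf6 rose by 0.65 and 0.45 on the log2 scale (adjusted p = 0.0184 and 0.0185 in limma).

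**Figure D4:**
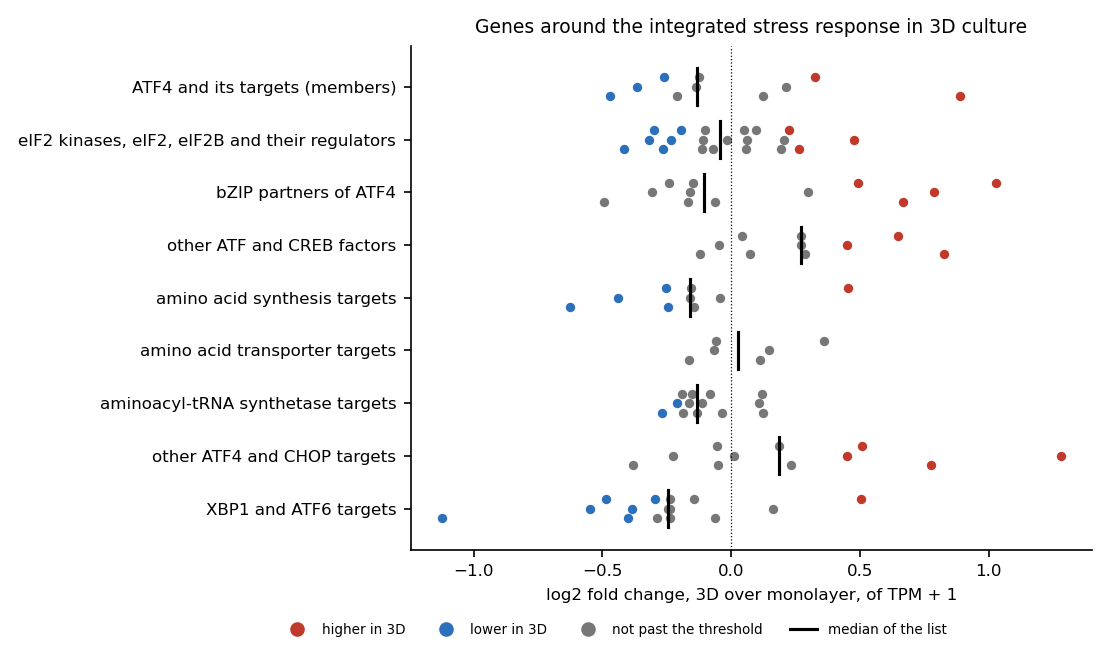
Log2 fold change, 3D over monolayer, on the log2(TPM + 1) scale, of each tested gene in the 10 members and in 8 lists around the integrated stress response (red: higher, blue: lower, grey: not past an adjusted p of 0.05; black bar: median of the list). Calls in both directions appear among the members, the eIF2 genes, the amino acid synthesis targets and the XBP1 and ATF6 targets, and no gene of the transporter list was called.

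Downstream, ATF4 targets of amino acid supply were divided into synthesis, transport and transfer RNA charging. Phgdh, Aldh18a1 and Cbs among the synthesis genes and Slc7a11, Slc7a3, Slc1a5 and Slc43a1 among the transporter genes had a mean below 1 TPM and were not tested. Of 9 tested synthesis genes 1 rose and 4 fell, with a median log2 fold change of -0.16. The serine pathway genes Psph and Psat1 were the clearest, Psph with 63.4 and 58.2 TPM in 2D, and 40.5 and 40.0 TPM in 3D (log2 fold change -0.62, limma adjusted p = 0.0041) and Psat1 with 51.0 and 45.6 against 35.6 and 37.2 TPM (log2 fold change -0.44, adjusted p = 0.0069). The folate enzyme genes Shmt2 and Mthfd2 fell by 0.25 each on the log2 scale (adjusted p = 0.0197 and 0.0424 in limma). Pycr1, a proline synthesis gene, was the one that rose, by 0.45 (adjusted p = 0.0291). None of the 6 tested transporter genes was called in limma's test (1 had an unadjusted p below 0.05), and the smallest adjusted p was that of the arginine transporter gene Slc7a1 (log2 fold change 0.36, adjusted p = 0.0557). The neutral amino acid transporter genes Slc7a5 and Slc38a2 followed, with 0.11 and 0.15 (limma adjusted p = 0.164 and 0.176). Asns, described above, lay with these uncalled genes.

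Of 13 aminoacyl-tRNA synthetase and transfer RNA export genes that ATF4 can induce, all were tested, none rose and 2 fell, Mars1 and Yars1, with log2 fold changes of -0.27 and -0.21 (adjusted p = 0.0285 and 0.0274 in limma). Sars1 came next, with -0.19 (limma adjusted p = 0.0538). At an unadjusted limma p below 0.05, 6 were lower and 0 higher, and the median log2 fold change was -0.13. Such a p was common, reached by 6057 of all 11960 genes tested, so this count does not set the list apart. In promoter windows of 300 bases, 7 of the 11 genes of this list with a window held a CARE match. Such matches are shown for 4 of them, chosen after their values were seen. Of these only Mars1 was called, and differences between the genes were not tested. Yars1 also held a match, which is not shown. The sequences are on the strand of the match, in GRCr8, with CARE in capitals. They are Mars1 (chr7:65023751-65023782), Tars1 (chr2:62114810-62114841), Iars1 (chr17:15193657-15193688) and Cars1 (chr1:208225333-208225364).
Mars1: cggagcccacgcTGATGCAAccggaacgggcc
Tars1: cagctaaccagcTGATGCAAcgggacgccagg
Iars1: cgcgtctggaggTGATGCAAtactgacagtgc
Cars1: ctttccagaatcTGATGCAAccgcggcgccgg

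Mars1 fell, as given above, while Tars1, Iars1 and Cars1 had log2 fold changes of -0.16, 0.11 and -0.11 and no call. Taking the members and all lists together, 20 tested genes held a CARE match, of which 2 rose (Pycr1 and Fgf21) and 4 fell (Nupr1, Eif2s2, Mars1 and Yars1). The median log2 fold change of the 20 was -0.12. Among all genes tested 18.5% rose and 19.5% fell, so these counts are not read as a result about CARE. Fgf21 reached the test only through its level in 3D culture, as given below.

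Other genes placed under ATF4 or CHOP, among them survival, redox and secreted factors, were measured with 11 tested genes, while Stc2 and Eif4ebp1 were below 1 TPM. Of the 11, 4 rose and none fell (5 and 0 at an unadjusted limma p below 0.05), with a median log2 fold change of 0.18. Bcl2l11, which encodes the pro-apoptotic protein BIM and is also a target of FOXO factors, had 4.60 and 3.26 TPM in 2D, and 11.3 and 11.0 TPM in 3D (log2 fold change 1.28, limma adjusted p = 0.0042). Ero1a, an oxidase of protein folding that hypoxia also induces, had 22.2 and 19.4 against 30.1 and 29.2 TPM (log2 fold change 0.45, adjusted p = 0.0089). The hormone gene Fgf21 stayed below 2 TPM, with 0.662 and 0.542 against 1.81 and 1.75 TPM (log2 fold change 0.78, limma adjusted p = 0.0103). Its monolayer values alone would have missed the mean of 1 TPM required for testing. A gene so low in monolayer could be called only as higher, which limits the count of 4 that rose. Klhl24 rose by 0.51 on the log2 scale (limma adjusted p = 0.0179). Ddit4, Gdf15, Herpud1 and Vldlr were tested and not called.

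For comparison, targets of XBP1 and ATF6, the other arms of the unfolded protein response, were taken from the same fit. Of 15 genes tested 6 fell and 1 rose, 13 had a negative log2 fold change, and the median was -0.25. Creld2, an endoplasmic reticulum chaperone-like gene, had 126 and 117 TPM in 2D, and 49.8 and 65.1 TPM in 3D (log2 fold change -1.12, limma adjusted p = 0.0046). Hspa5, which encodes the chaperone BiP, had 1219 and 1099 TPM in 2D, and 858 and 952 TPM in 3D (log2 fold change -0.40, adjusted p = 0.0125). Sdf2l1 fell by 0.55 on the log2 scale (limma adjusted p = 0.0153). The gene that rose was Ern1, which encodes the sensor IRE1 (log2 fold change 0.50, limma adjusted p = 0.0198). No test compared one list with another.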

How the data were processed

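Messenger RNA of 4 cultures was sequenced as 75-bp single-end reads from stranded libraries. The authors quantified reads per transcript with Salmon 1.2 (quality checked in FastQC 0.11.8). Their methods name the reference as rn4 plus human insulin, and the build was not checked here. The deposited TPM have decimal commas and sum to 1000000 in each sample. No value above 0 was shared between any pair of samples. TPM carry no counts, so the count test of the methods was not repeated.

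Transcripts of a symbol were added up and genes averaging 1 TPM or more retained. Samples were scaled by TMM without weights, trimming 30% on M and 5% on A, with factors from 0.960 to 1.02. Log2(TPM + 1) was tested with limma 3.58.1 in R 4.3.3 (empirical Bayes with trend), with Benjamini-Hochberg adjustment over 11960 genes. The steps were run on simulated data in which few genes changed. How they perform where changes are as common as here was not examined. The members and lists were chosen with earlier results of these data known, so no list was tested as a set. Named from each list are the 3 genes with the smallest p, and the other genes named were chosen after their values were seen. Symbols of lists were matched through older symbols in RefSeq (GRCr8), from which promoters and gene overlaps also came. Tnfrsf10b, Bbc3 and Cth were not matched. Alternatives were scaling, filter, pseudocount, empirical Bayes options, threshold, the most abundant transcript alone, the replicate block and each culture left out.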

Additional observations from a re-analysis of the deposited data

How the results depend on the processing

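Under 15 alternatives the number of members called changed by more than 1.5 times in 3. At an adjusted p below 0.01, 1 member was higher and 1 lower (Atf3 and Ddit3), with 724 genes higher and 694 lower among all tested. With each culture left out in turn, between 0 and 3 members were higher and between 0 and 4 lower, and among all genes tested between 105 and 2282 were higher and between 31 and 2233 lower; the low ends are those without bioprinted replicate 1. Every fit with a culture left out, monolayer or 3D, holds the same smaller number of samples. With either monolayer culture left out the called members kept their calls. Why fewer calls remained with a 3D culture left out was not tested. Chac1 reversed without monolayer replicate 1 (log2 fold change 0.0669) and without bioprinted replicate 2 (0.0141), the range over cultures left out being -0.32 to 0.07, and it was called in no setting. Of 132 member values under alternatives, 115 kept direction and side of the threshold, 11 lost a call and 4 gained one. Atf4 and Trib3 were called in no setting.

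Labels give no shared origin for equal replicate numbers, and the correlation between 2D and 3D deviations of equal number was -0.006, so the numbers were not taken to pair cultures. With a replicate block, 3 members were higher, Asns being added, and 3 lower, among 2450 genes higher and 2364 lower of the 11960 tested. TPM hold no counts, and limits of detection were not worked out.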
